A study of Homo sapiens and Mus musculus with 13 samples.

Results

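The integrin subunit genes, together with the genes of the kindlins and of talin 1 that bind integrin tails inside the cell, were followed in RNA-Seq libraries of a human breast cancer cell line and of mouse mammary tumors. Members were chosen by gene symbol: every ITGA or ITGB gene with a number or with the letter D, E, L, M, V or X, together with FERMT1, FERMT2, FERMT3 and TLN1. Genes of integrin-binding proteins and antisense RNAs were left out. The human table held 28 members among 24523 symbols, namely 17 alpha subunits, 8 beta subunits and 3 kindlins. The mouse table held 30 members among 55228 symbols, namely 18 alpha subunits, 8 beta subunits, 3 kindlins and Tln1.

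The study asked how TRIM11, a ubiquitin ligase, acts on breast cancer cells through KDM5C, a histone H3K4 demethylase. The 7 human libraries came from MDA-MB-231, a line of triple-negative breast cancer, infected with lentivirus carrying Cas9 and a guide RNA. 1 Control line carried a GFP guide, 2 TRIM11-KD lines carried TRIM11 guide 1 or 2, 2 KDM5C-KD lines carried KDM5C guide 1 or 2, and 2 double knockdown (DKD) lines carried TRIM11 guide 1 or 2 with KDM5C guide 2. The 6 tumors came from 3-month-old hybrid mice, from C57BL/6N crossed with the FVB/N-Tg (MMTV-PyVT) transgenic strain, female by the study's methods, of the line the methods give as 634Mul/J. The labels count that number up by mouse, to 639Mul/J, which the methods do not mention. All 6 mice carried the MMTV-PyVT transgene, in which a mouse mammary tumor virus promoter drives a viral oncogene in mammary epithelium. 3 mice were Trim11+/+ and 3 were Trim11+/-, with exons 2 to 6 of Trim11 deleted on 1 allele in the whole animal.

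Integrins are receptors made of 1 alpha and 1 beta subunit that hold cells to the extracellular matrix or to other cells, and the pairing sets the ligand. In breast epithelium the pairs alpha3beta1, alpha6beta1 and alpha6beta4 bind laminins of the basement membrane, alpha2beta1 binds collagens, and alpha5beta1 and the alphaV pairs bind fibronectin, vitronectin and other proteins with an RGD motif. Talin and the kindlins bind beta tails and switch the receptors to their active state. Pairs with the beta2 or beta7 subunit belong to leukocytes.

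Expression was given as FPKM, fragments scaled to gene length and to the number mapped in a library, so levels may be compared between genes. A member was tested where its mean FPKM over the libraries of its table was at least 0.5, which left 17 of the 28 human and 28 of the 30 mouse members. In the tumors the values were whole reads divided by length, with library totals between 8793199 and 11117125 reads, while the depth of the cell lines is unknown. Labels do not say whether the 2 lines of a knockdown are separate infections or clones. The p-values in the cell lines therefore measure the spread between these libraries. The 2 lines of a knockdown also carried different guides, in DKD for TRIM11 alone, so this spread includes differences between guides. KDM5C mRNA was between 28.4 and 30.3 FPKM in the 3 libraries without a KDM5C guide and between 18.8 and 22.7 in the 4 with one. TRIM11 mRNA was 12.6 in Control, and it was 13.4 in the library labelled TRIM11-KD 1 and 16.1 in the library labelled DKD 1, so those libraries did not have less TRIM11 mRNA than Control. It was 10.6 in TRIM11-KD 2 and 9.38 in DKD 2. By its methods the study checked the knockdown lines by western blotting, and these mRNA values are no measure of TRIM11 protein. Trim11 was between 35.8 and 39.2 FPKM in the Trim11+/+ tumors and between 22.8 and 24.0 in the Trim11+/- tumors. The markers of MDA-MB-231 were present, with VIM between 1038 and 1309 FPKM and CD44 between 188 and 347. Of 5 genes known to be low or absent in the line, PGR was listed at 0 in all 7 libraries, ESR1 was at most 0.0234 FPKM and CDH1 between 0.615 and 1.98, while EPCAM was between 4.03 and 12.3 and ERBB2 between 17.8 and 23.7.

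The promoters of ITGA10, ITGA2 and ITGB8 are shown because these 3 members were at least 1.5 times below Control in both KDM5C-KD lines. KDM5C acts on a histone mark of promoters and enhancers, and whether it acts on these 3 promoters was not tested. Each line gives the 250 bases before the start of the gene from RefSeq on GRCh38.p14, with CG dinucleotides in capitals. The ITGA10 stretch is chr1:145910051-145910300 on the minus strand, the ITGA2 stretch is chr5:52989102-52989351 on the plus strand, and the ITGB8 stretch is chr7:20330650-20330899 on the plus strand.
ITGA10: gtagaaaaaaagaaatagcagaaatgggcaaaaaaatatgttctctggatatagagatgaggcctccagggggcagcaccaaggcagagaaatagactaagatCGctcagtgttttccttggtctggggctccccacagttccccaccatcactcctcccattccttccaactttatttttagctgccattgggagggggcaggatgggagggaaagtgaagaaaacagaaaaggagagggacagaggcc
ITGA2: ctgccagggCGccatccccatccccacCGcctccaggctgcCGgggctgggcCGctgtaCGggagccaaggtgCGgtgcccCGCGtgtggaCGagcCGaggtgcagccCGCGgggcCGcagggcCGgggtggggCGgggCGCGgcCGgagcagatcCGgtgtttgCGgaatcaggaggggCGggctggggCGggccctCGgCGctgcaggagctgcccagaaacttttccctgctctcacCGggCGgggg
ITGB8: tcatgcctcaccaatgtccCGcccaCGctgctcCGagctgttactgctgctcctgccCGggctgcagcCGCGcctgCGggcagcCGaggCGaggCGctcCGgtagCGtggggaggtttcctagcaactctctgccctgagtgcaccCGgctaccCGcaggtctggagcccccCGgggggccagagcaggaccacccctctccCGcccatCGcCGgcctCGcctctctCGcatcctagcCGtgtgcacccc
The ITGA10 stretch held 1 CG and 48.4% G or C, the ITGA2 stretch 26 CG and 76.4%, and the ITGB8 stretch 21 CG and 71.2%, beside a median of 11 CG over the 35116 promoters of the table. The letters GGGCGG, the GC box, were found on either strand 4 times before ITGA2, 2 times before ITGB8 and 0 times before ITGA10, and 42.64% of all promoters of that length held them. TATAAA and CACCTG, found in 10.72% and 17.49% of all promoters, were in none of these 3 stretches. The stretch before ITGA10 was thus poor in CG, and the other 2 were rich in it. FERMT1, ITGA7, ITGB3 and ITGB4 had no entry in that table.

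In the cell lines ITGB1 and ITGA3, which form a laminin receptor, stood above every other member in every library. ITGB1, the beta subunit shared by most matrix receptors, had a mean of 374 ± 70.9 FPKM (SD, n = 7 libraries) and ITGA3, its laminin-binding partner, had 320 ± 53.7, so these levels did not differ beyond their spread. They lay above 99.06% and 98.92% of the genes with a value above 0. Next came ITGA6, the other laminin-binding alpha subunit, with 87.8 ± 16.1 FPKM, then ITGB5, a partner of alphaV, with 71.1 ± 6.16. ITGB4, the partner of alpha6 in hemidesmosomes, had 55.5 ± 23.4 FPKM and ITGA5, the fibronectin receptor subunit, had 50.9 ± 8.39. From ITGA6 to ITGA5, the ranges of neighbours in this order overlapped.

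Among the kindlins, FERMT2, the form of mesenchymal cells, led with 31.1 ± 7.71 FPKM (SD, n = 7). FERMT1, the form of epithelial cells, had 4.99 ± 1.42, and FERMT3, the form of blood cells, had 0.736 ± 0.391. TLN1 stood in an entry shared with MIR6852, at 101 to 121 FPKM, and ITGA1 in an entry shared with PELO, at 21.0 to 25.0, so neither was counted among the members. Of the other members tested, ITGAV was at 21.5 ± 3.29 FPKM, ITGA2 at 14.8 ± 7.47 and ITGB3 at 12.7 ± 4.51. The leukocyte subunit ITGB2 was at 4.93 ± 1.95 FPKM and ITGAE at 2.72 ± 0.377, and ITGA7, ITGA10 and ITGB8 were below 2. The remaining 11 members had means under 0.5 FPKM, from ITGA2B at 0.223 down to ITGA8, which was listed at 0 in all 7 libraries. The leukocyte subunits ITGAX and ITGB7 had means of 0.128 and 0.0536 FPKM. ITGA4 and ITGA9, which bind VCAM1 and fibronectin in other cells, had means of 0.00411 and 0.0355 FPKM.

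**Figure D1:**
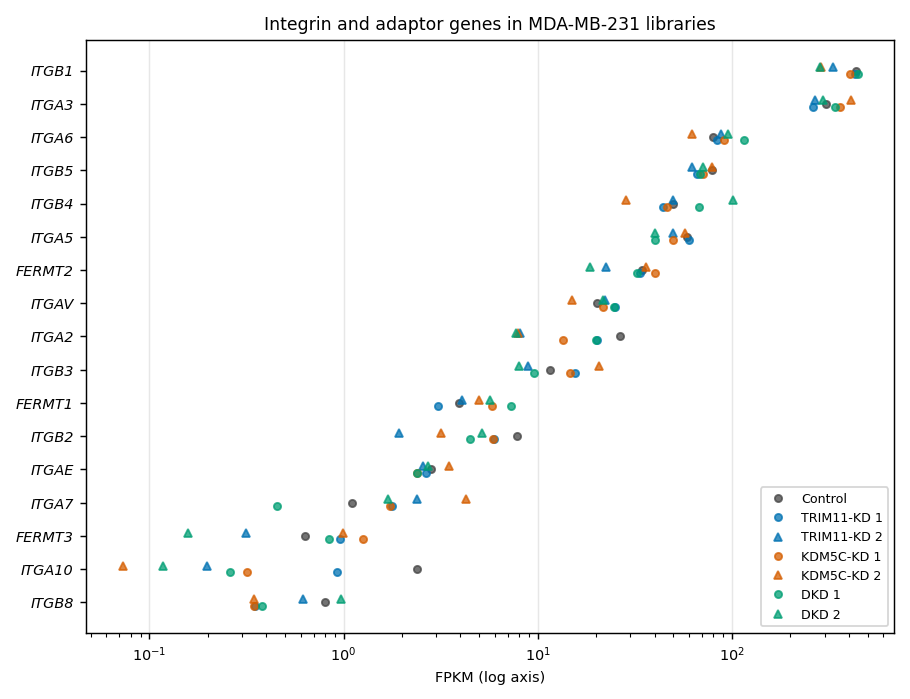
FPKM (log axis) of the 17 tested members in the 7 MDA-MB-231 libraries, with 1 point for each library, triangles for lines numbered 2 and colors for groups. ITGB1 and ITGA3 lie above 260 FPKM in every library, and ITGA10 spreads from 0.0731 to 2.38 FPKM.

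The members with most spread over the 7 libraries were low ones: ITGA10 varied 32.5-fold between its lowest and highest library, ITGA7 9.36-fold and FERMT3 7.95-fold. Least spread was found for ITGB5, with 1.27-fold, followed by ITGAE with 1.46-fold, ITGA5 with 1.501-fold, ITGB1 with 1.56-fold and ITGA3 with 1.58-fold. Among members with a mean above 14 FPKM, ITGB4 and ITGA2 varied most, with 3.56-fold and 3.43-fold. The libraries were not directional, so reads of exons that overlap a gene on the other strand cannot be told apart. ITGA7 overlaps exons of BLOC1S1 and METTL7B in this way, FERMT3 overlaps TRPT1 and ITGAE overlaps HASPIN.

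Against the single Control library, both lines of a knockdown had to lie at least 1.5 times above it, or both at least 1.5 times below it, on the scale of FPKM + 0.1. With 1 Control library this comparison has no test, and the 3 comparisons share that library. In the TRIM11-KD lines, 2 of 17 members met the rule, beside 5.12% of all 12636 genes. In the KDM5C-KD lines, 4 of 17 met it, beside 8.52%, and in the DKD lines, 2 of 17, beside 9.97%. The median log2 ratio of the 17 members was -0.16 in TRIM11-KD, -0.09 in KDM5C-KD and -0.30 in DKD, and that of all genes was -0.01 in each.

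ITGA10, a collagen-binding alpha subunit best known from cartilage (hg19 chr1:145524969-145543868, plus strand), was lower in all 3 knockdowns. It was at 2.38 FPKM in Control, at 0.920 and 0.198 in TRIM11-KD, at 0.319 and 0.0731 in KDM5C-KD, and at 0.261 and 0.117 in DKD. Control was the highest of the 7 libraries, and in each knockdown the line numbered 2 was the lower one. The mean log2 ratio to Control was -2.17, -3.20 and -3.14 in the 3 knockdowns in that order. Its level is near the lower limit of the tested range, and on the scale of FPKM + 1 the ratios were -1.504 in KDM5C-KD and -1.51 in DKD. The mean of ITGA10 over the 7 libraries, 0.609 FPKM, reached the filter of 0.5 only through Control. The counts, the call and the interaction that include ITGA10 were therefore not independent of the filter.

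ITGA2, the collagen receptor subunit of epithelial cells and platelets (hg19 chr5:52285170-52390609), was at 26.4 FPKM in Control, at 13.6 and 7.89 in KDM5C-KD, at 20.2 and 8.06 in TRIM11-KD, and at 20.0 and 7.70 in DKD. All 6 knockdown libraries were below Control, and in KDM5C-KD alone both lines were past the fold, with a mean log2 ratio of -1.34. ITGB8, a partner of alphaV that takes part in TGF-beta activation, was at 0.7995 FPKM in Control and at 0.344 and 0.347 in KDM5C-KD. It was at 0.350 and 0.618 in TRIM11-KD and at 0.382 and 0.970 in DKD, so its DKD lines lay on either side of Control.

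ITGA7, a laminin-binding subunit best known from muscle, was the member past the fold in the upward direction. It was at 1.103 FPKM in Control, at 1.78 and 2.39 in TRIM11-KD, at 1.74 and 4.27 in KDM5C-KD, and at 0.456 and 1.69 in DKD. The TRIM11-KD and KDM5C-KD lines were all above Control, and the DKD lines lay on either side of it. ITGB2, the beta subunit of leukocyte integrins, was lower in both DKD lines, at 4.47 and 5.17 FPKM, than in Control, at 7.85. It was at 5.98 and 1.93 in TRIM11-KD and at 5.88 and 3.19 in KDM5C-KD, where a single line of each was past the fold. PTPRC, the pan-leukocyte marker, was between 0.0778 and 0.980 FPKM in the 7 libraries, and the part of blood cells in the ITGB2 values was not tested.

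**Figure D2:**
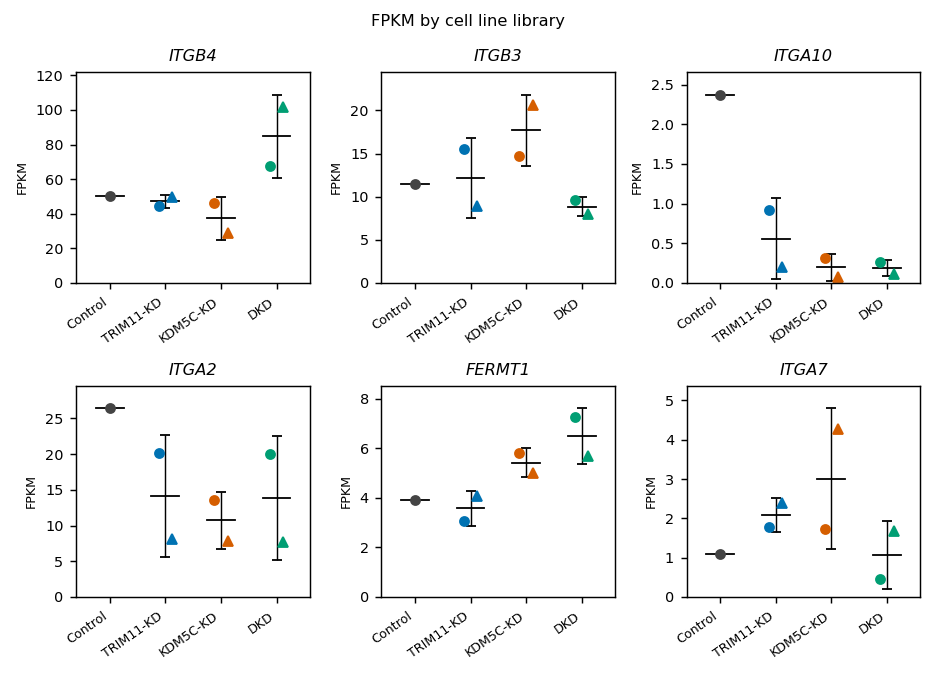
FPKM of ITGB4, ITGB3, ITGA10, ITGA2, FERMT1 and ITGA7 by group of cell lines, with 1 point for each library, triangles for lines numbered 2, horizontal bars for group means and vertical bars for the SD of the 2 lines. ITGB4 is highest in the DKD lines at 67.6 and 102 FPKM, and ITGA10 is highest in Control at 2.38 FPKM.

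The 4 libraries with a KDM5C guide were compared with the 3 without it, with the TRIM11 guide as a second term of the same limma fit. KDM5C-KD 1 was the only library with KDM5C guide 1, while KDM5C-KD 2, DKD 1 and DKD 2 carried guide 2. A gene was called where the ratio of mean FPKM was at least 1.5 in either direction and the unadjusted p was under 0.05. By this rule 2 of 17 members were called, FERMT1 higher and ITGA10 lower, beside 3.5% of all genes. ITGA10 reached the filter on mean FPKM only through Control, a library without the guide. No member had an adjusted p under 0.05 in limma, beside 0.00791% of all genes, while 4 had an unadjusted p under 0.05, beside 11.1%.

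FERMT1, kindlin-1 of epithelial cells (hg19 chr20:6055492-6103861, minus strand), was at 3.93 FPKM in Control, 3.08 and 4.09 in TRIM11-KD, 5.83 and 5.003 in KDM5C-KD, and 7.28 and 5.70 in DKD. Every library with the KDM5C guide was above every library without it, at 5.95 ± 0.958 (SD, n = 4) against 3.70 ± 0.543 (SD, n = 3), and 10.7% of all genes did not overlap between these libraries either. The log2 fold change was 0.58 (SE 0.15), with a Benjamini-Hochberg adjusted p of 0.383 in limma. FERMT1 was no longer called without the library labelled TRIM11-KD 1 or without that labelled DKD 1, where its log2 fold change was 0.46 and 0.47, or without both, where it was 0.39. EPCAM, another epithelial gene, was between 4.03 and 6.77 FPKM without the KDM5C guide and between 10.3 and 12.3 with it, while CDH1 was between 1.07 and 1.98 without it and between 0.615 and 1.62 with it. The part of a change in epithelial genes in the FERMT1 values was not tested.

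ITGA10 was at 0.193 ± 0.116 FPKM (SD, n = 4) with the KDM5C guide and at 1.16 ± 1.11 (SD, n = 3) without it. Its log2 fold change was -0.81 (SE 0.29), with an adjusted p of 0.420 in limma. The groups overlapped, since TRIM11-KD 2 was at 0.198 FPKM and KDM5C-KD 1 and DKD 1 were above that. Without Control the log2 fold change was -0.35, and without the library labelled TRIM11-KD 1 or without KDM5C-KD 1 it was -0.76 and -0.79, each no longer called, as with TRIM11-KD 1 and DKD 1 left out together at -0.90. The number of members called for the KDM5C guide was 0 without TRIM11-KD 1, 1 without Control or KDM5C-KD 1, and 3 without TRIM11-KD 2, where ITGA2 joined.

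ITGA3 and ITGA5 had an unadjusted p under 0.05 for both guides and missed the fold. For the TRIM11 guide no member had an unadjusted p under 0.05 in limma without TRIM11-KD 2, KDM5C-KD 2 or DKD 2. ITGA3 was at 306 FPKM in Control, 261 and 267 in TRIM11-KD, 358 and 411 in KDM5C-KD, and 339 and 295 in DKD. The highest levels were in KDM5C-KD and the lowest in TRIM11-KD, with Control and DKD between. Its log2 fold change was 0.29 (SE 0.10) for the KDM5C guide and -0.25 (SE 0.10) for the TRIM11 guide, with adjusted p of 0.403 and 0.449 in limma. ITGA5 was at 58.5 FPKM in Control, 60.1 and 49.8 in TRIM11-KD, 49.9 and 57.6 in KDM5C-KD, and 40.1 in both DKD lines, which were the lowest of the 7. Its log2 fold change was -0.31 (SE 0.12) for the KDM5C guide and -0.28 (SE 0.12) for the TRIM11 guide, with adjusted p of 0.420 and 0.463 in limma.

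For the TRIM11 guide, 4 libraries against 3, limma called 0 of 17 members, beside 3.93% of all genes, and 2 members had an unadjusted p under 0.05, beside 10.7%. No member had an adjusted p under 0.05, the lowest being that of ITGA3. The median log2 fold change of the members was -0.25, beside -0.01 over all genes. It was 0.00 without Control, -0.11 without TRIM11-KD 2 and -0.14 without DKD 2. FERMT2, the only member without overlap beside 8.75% of all genes, was at 33.5 and 22.6 FPKM in TRIM11-KD and 32.6 and 18.5 in DKD, against 34.4 in Control and 40.1 and 36.2 in KDM5C-KD. Its log2 fold change was -0.49 (SE 0.22), with an adjusted p of 0.481 in limma. The count rose to 2 without Control, where ITGB3 (-0.91) and ITGB4 (1.17) were called. Without Control the TRIM11 term is the same estimate as DKD against KDM5C-KD, given below, and not a separate result. The count also rose to 2 without the library labelled TRIM11-KD 1, where ITGB3 (-0.72) and FERMT2 were called. With the libraries labelled TRIM11-KD 1 and DKD 1 left out together, an alternative chosen after the TRIM11 values were seen, 4 members were called lower: FERMT2 (-0.82), FERMT3 (-0.63), ITGA2 (-0.91) and ITGB3 (-0.73). TRIM11-KD and DKD lines of the same number share a TRIM11 guide, and with the replicate number as a block 3 members were called, ITGB4 higher (1.17) and FERMT3 (-0.54) and ITGA7 (-0.94) lower. The block gives Control a level of its own, so these are again the log2 fold changes of DKD against KDM5C-KD.

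**Figure D3:**
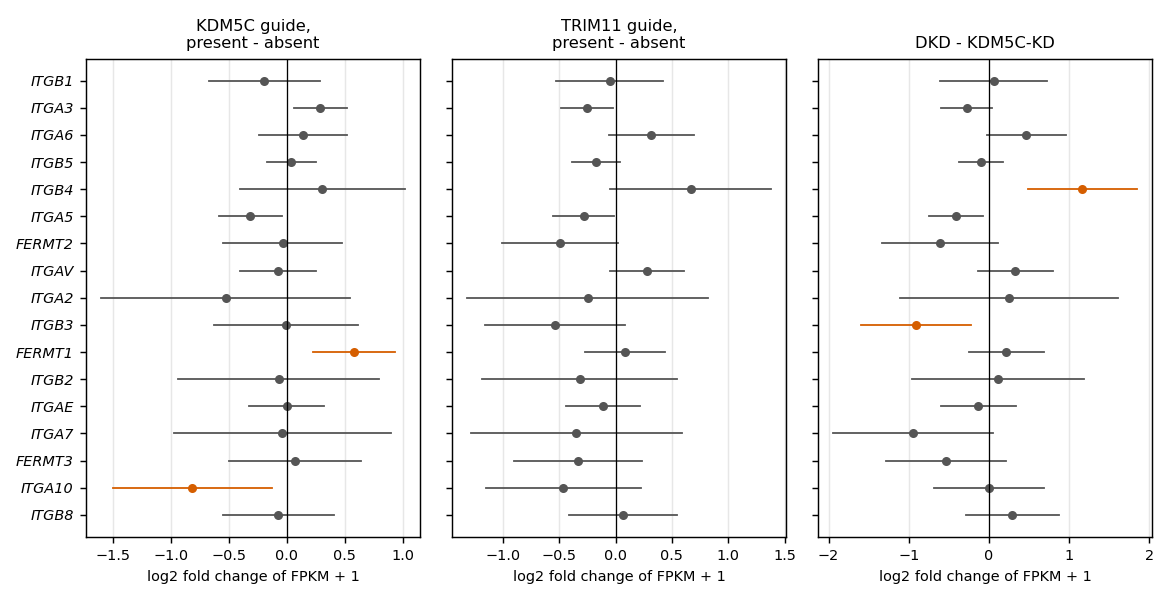
Log2 fold change of FPKM + 1 with its 95% confidence interval (limma) for the 17 tested members, for the KDM5C guide, the TRIM11 guide and DKD against KDM5C-KD, with called members in orange. FERMT1 lies at 0.58 and ITGA10 at -0.81 for the KDM5C guide, and ITGB4 at 1.17 and ITGB3 at -0.91 for DKD against KDM5C-KD.

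DKD against KDM5C-KD compared lines with a TRIM11 and a KDM5C guide with lines that carried a KDM5C guide alone. Both DKD lines carried KDM5C guide 2, which KDM5C-KD 2 shares and KDM5C-KD 1 does not, so the KDM5C guides differed as well. TRIM11 mRNA was 16.1 FPKM in DKD 1 and 9.38 in DKD 2, against 13.6 and 14.2 in KDM5C-KD. Limma over the 6 knockdown libraries called 2 of 17 members, ITGB4 higher and ITGB3 lower, beside 6.74% of all genes, and no member had an adjusted p under 0.05. The values of 9 members did not overlap between the 2 lines of DKD and the 2 of KDM5C-KD, beside 43.3% of all genes.

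ITGB4, the long-tailed subunit that links laminin to keratin filaments (hg19 chr17:73717408-73753899, plus strand), was at 67.6 and 102 FPKM in DKD, 46.3 and 28.6 in KDM5C-KD, 44.4 and 49.9 in TRIM11-KD, and 50.01 in Control. The DKD lines were the highest of the 7 libraries and KDM5C-KD 2 was the lowest. The log2 fold change of DKD over KDM5C-KD was 1.17 (SE 0.28), with an adjusted p of 0.379 in limma. ITGB4 was called without each of the 6 libraries in turn, with log2 fold changes between 0.83 without KDM5C-KD 2 and 1.51 without KDM5C-KD 1.

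ITGB3, the alphaV partner of the vitronectin receptor (hg19 chr17:45331193-45391109, plus strand), went the other way. It was at 9.59 and 8.03 FPKM in DKD, 14.7 and 20.6 in KDM5C-KD, 15.5 and 8.89 in TRIM11-KD, and 11.5 in Control. The DKD lines lay under each KDM5C-KD line, with Control between the groups, and the TRIM11-KD lines lay on either side of Control. The log2 fold change was -0.91 (SE 0.28), with an adjusted p of 0.388 in limma, and it was no longer called without KDM5C-KD 2 (-0.69) or without DKD 2 (-0.80). The partners of these subunits, ITGA6 and ITGAV, were not called. ITGA6 was at 115 and 95.1 FPKM in DKD and at 91.4 and 62.2 in KDM5C-KD, and ITGAV was at 24.6 and 21.6 in DKD and at 21.7 and 15.1 in KDM5C-KD.

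The number of members called was 1 without KDM5C-KD 2, 4 without the library labelled DKD 1 and 5 without KDM5C-KD 1, where ITGA6, ITGA7 and ITGAV joined ITGB4 and ITGB3. With the replicate number as a block it was 4, where FERMT3 (-0.54) and ITGA7 (-0.94) joined. Whether the KDM5C guide acted differently with and without a TRIM11 guide was tested by the interaction of the guides. It had an unadjusted p under 0.05 for 2 of 17 members, ITGB4 and ITGA10, beside 5.49% of all genes, and both had an adjusted p of 0.879 in limma. The interaction was 1.25 (SE 0.44) for ITGB4 and 1.15 (SE 0.44) for ITGA10, on the log2 scale. For ITGB4 the KDM5C-KD lines were below Control and the DKD lines were above TRIM11-KD. For ITGA10 the KDM5C-KD lines were far below Control, while the DKD lines lay on either side of TRIM11-KD 2 (0.198 FPKM) and below TRIM11-KD 1 (0.920 FPKM).

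In the lines numbered 2 of all 3 knockdowns, 3 members were lower than in the other 4 libraries, Control included. This grouping was seen in the values and has no test. The number is that of the TRIM11 guide in TRIM11-KD and DKD and of the KDM5C guide in KDM5C-KD. DKD 1, among the other libraries, also carried KDM5C guide 2. ITGA2 was between 7.70 and 8.06 FPKM in the lines numbered 2 and between 13.6 and 26.4 in the others. ITGB1 was between 285 and 331 against 404 to 444, and ITGA10 between 0.0731 and 0.198 against 0.261 to 2.38. ITGA2 and ITGB1 form 1 collagen receptor. These 3 of 17 members stand beside 13.4% of all genes that were all below or all above in the lines numbered 2.

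**Figure D4:**
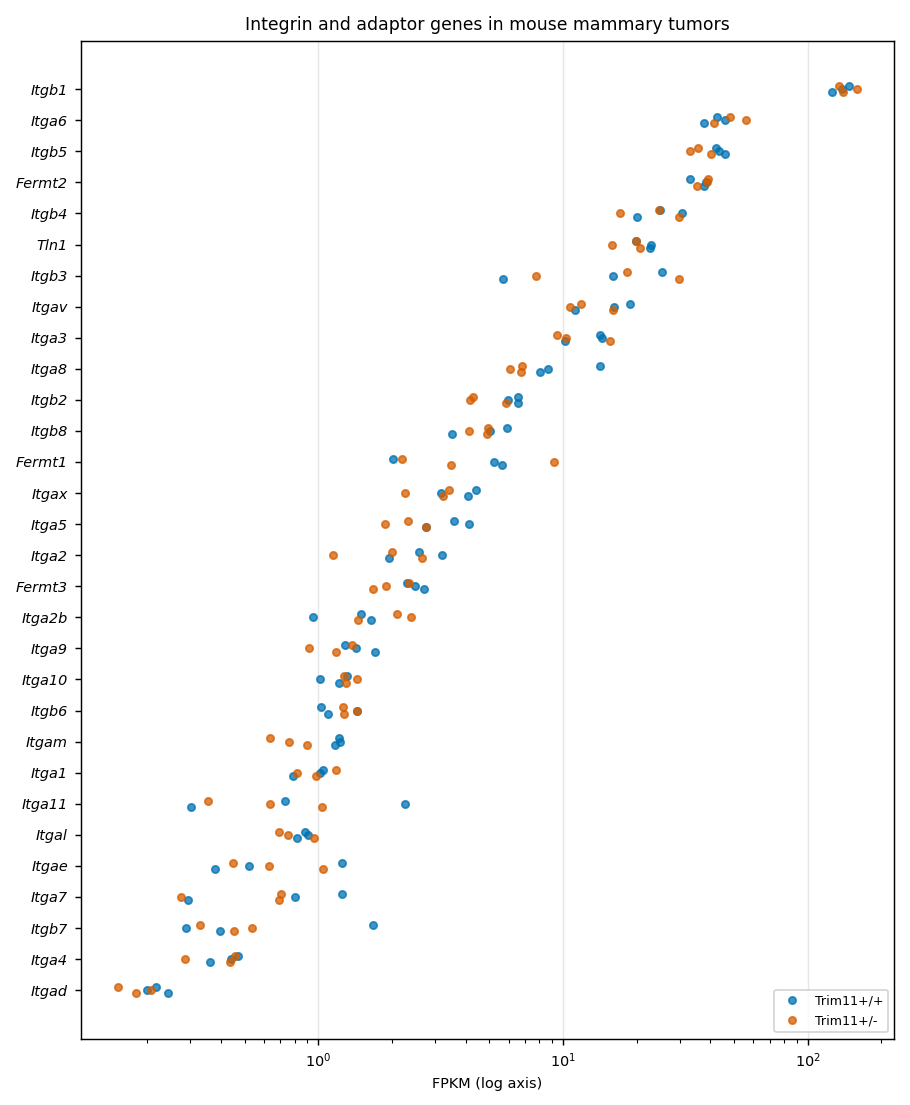
FPKM (log axis) of the 30 members in 6 mammary tumors, with 1 point for each tumor and colors for the genotype. Itgb1 lies between 126 and 160 FPKM, and Itga8 and Itgam are lower in every Trim11+/- tumor than in every Trim11+/+ tumor.

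In the mouse tumors the order of the subunits was similar at the top and broader below. Itgb1 led with 141 ± 11.6 FPKM (SD, n = 6 tumors), followed by Itga6 with 45.2 ± 6.36, Itgb5 with 40.0 ± 4.84 and Fermt2 with 37.1 ± 2.44. The ranges of Itga6, Itgb5 and Fermt2 overlapped one another, and Itgb1 lay above all of them in every tumor. Itgb4 had 24.5 ± 5.33 FPKM and Tln1, the talin of most cells, had 20.3 ± 2.54. Itgav, the alpha subunit of the vitronectin receptors, had 14.1 ± 3.32 FPKM, and Itga3, second in the cell lines, had 12.4 ± 2.64 in the tumors. Itga8, a subunit of smooth muscle and other mesenchymal cells that was listed at 0 in the cell lines, had 8.44 ± 2.99.

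Fermt1 was at 4.62 ± 2.68 FPKM (SD, n = 6) and Fermt3 at 2.24 ± 0.381. The leukocyte subunits Itgb2 and Itgax were at 5.57 ± 1.08 and 3.43 ± 0.756, Itgb7 was at 0.612 ± 0.525, and Itga2 and Itga10 at 2.26 ± 0.719 and 1.26 ± 0.138. Itga9 and Itga4 were at 1.32 ± 0.261 and 0.409 ± 0.0713. The lowest member was Itgad at 0.1996 ± 0.0318 FPKM, with 6 to 12 reads in a tumor, beside 4800 to 6999 reads for Itgb1. Itgb3 varied 5.21-fold, at 5.69, 25.4 and 16.0 FPKM in the Trim11+/+ tumors and 29.7, 18.2 and 7.74 in the Trim11+/- tumors. The summed level of 3 mast cell markers was 0.713, 5.21 and 2.303 FPKM in the same Trim11+/+ tumors and 7.50, 3.39 and 2.81 in the Trim11+/- tumors. The tumor lowest and the pair of tumors highest in Itgb3 were also the lowest and the pair highest in these markers, whose part in the Itgb3 values was not tested. This match was seen in the values, and the mast cell marker Tpsb2 alone had another pair highest. T cell markers had the same pair highest but another tumor lowest, and platelet markers had another pair highest.

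Trim11+/- tumors were compared with Trim11+/+ tumors by limma over the 17328 genes that passed the filter on mean FPKM. By the fold and p rule 2 of 28 members were called, Itga8 and Itga5, both lower, beside 3.61% of all genes and 1.87% in the downward direction. No member had an adjusted p under 0.05, the lowest being 0.707 in limma, and 1 gene of the whole table did, a share of 0.00577%. 4 members had an unadjusted p under 0.05, beside 6.94% of all genes. The median log2 fold change of the 28 members was -0.16, beside 0.00 over all genes, and 10 of the 28 were above 0. That median lay nearer 0 without Trim11+/+ 3 (-0.06), Trim11+/+ 2 (-0.08) or Trim11+/- 3 (-0.08). In whole tumors, fewer cells of a type and less RNA per cell cannot be told apart.

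Itga8, which pairs with beta1 to bind nephronectin (mm10 chr2:12106632-12301922, minus strand), was at 8.07, 14.2 and 8.66 FPKM in the Trim11+/+ tumors and at 6.76, 6.82 and 6.06 in the Trim11+/- tumors, from 442 to 1066 reads. The genotypes did not overlap, and the Trim11+/+ tumor at 14.2 stood apart from the other 5. The means were 10.3 ± 3.40 and 6.55 ± 0.423 FPKM (SD, n = 3 each), with a log2 fold change of -0.55 (SE 0.21) and an adjusted p of 0.707 in limma. Without Trim11+/+ 2, the tumor at 14.2, the log2 fold change was -0.31 and Itga8 was not called. It was not called either without Trim11+/- 1, 2 or 3, at -0.57, -0.57 and -0.50.

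Itga5, the fibronectin receptor subunit (mm10 chr15:103344286-103366763, minus strand), was at 2.76, 3.59 and 4.12 FPKM in the Trim11+/+ tumors and at 2.75, 2.33 and 1.87 in the Trim11+/- tumors, from 99 to 204 reads. The groups did not overlap, but the lowest Trim11+/+ and the highest Trim11+/- tumor were almost equal. The log2 fold change was -0.43 (SE 0.17), with an adjusted p of 0.711 in limma. Itga5 was not called without Trim11+/+ 2 or 3, at -0.41 and -0.33, nor without Trim11+/- 2 or 3, at -0.44 and -0.33. The number of members called in tumors was 0 without Trim11+/+ 2, Trim11+/- 2 or Trim11+/- 3 and 1 without Trim11+/+ 3.

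Itgb2 and Itgb5 had an unadjusted p under 0.05 and missed the fold. Itgb2, the shared beta subunit of leukocyte integrins, was at 6.57, 6.58 and 5.97 FPKM in the Trim11+/+ tumors and at 5.84, 4.29 and 4.18 in the Trim11+/- tumors. Its log2 fold change was -0.37 (SE 0.14), and that of Itgb5 was -0.26 (SE 0.10), both with an adjusted p of 0.707 in limma. Itgb5 was at 45.9, 42.0 and 43.3 FPKM against 40.3, 35.6 and 33.1. With Itgam, the alpha subunit of macrophages and neutrophils, at 1.17, 1.21 and 1.23 against 0.895, 0.634 and 0.760 FPKM, 5 members did not overlap between the genotypes, all lower in Trim11+/-, beside 13.4% of all genes without overlap. Without Trim11+/- 1, Itgb2 was called at -0.49. No member had an unadjusted p under 0.05 in limma without Trim11+/- 2 or without Trim11+/- 3. Without Trim11+/+ 3 Itga8 alone had one, so Itgb2 and Itgb5 lost theirs in each of these fits.

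**Figure D5:**
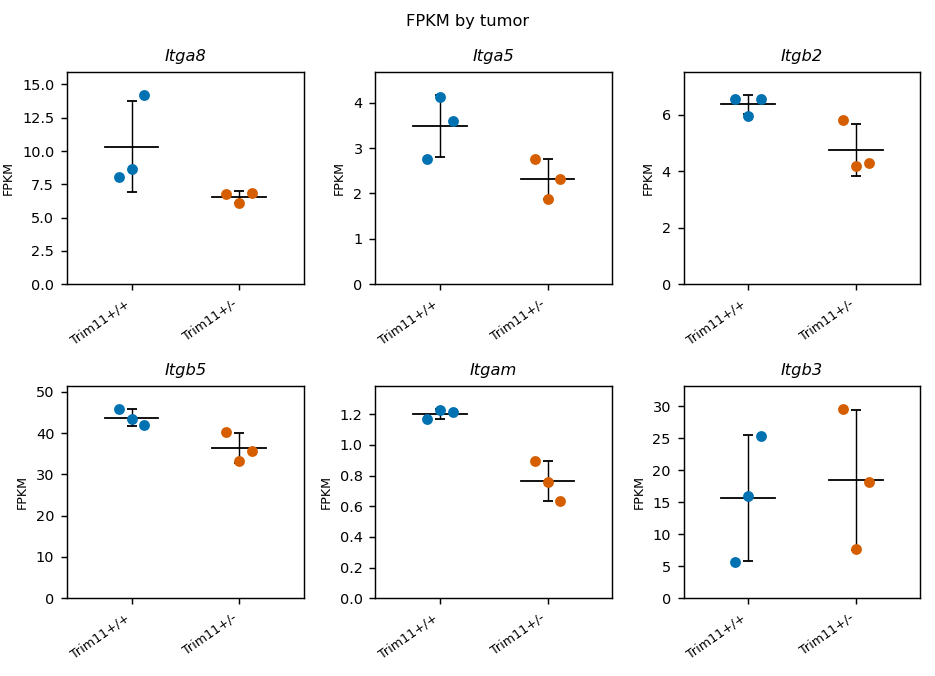
FPKM of Itga8, Itga5, Itgb2, Itgb5, Itgam and Itgb3 in Trim11+/+ and Trim11+/- tumors, with 1 point for each of 3 tumors a group, horizontal bars for the mean and vertical bars for the SD. The points of the first 5 genes do not overlap between the genotypes, and those of Itgb3 spread from 5.69 to 25.4 FPKM in Trim11+/+ and from 7.74 to 29.7 FPKM in Trim11+/- tumors.

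The cell types that carry these subunits varied between the tumors as well. The summed level of 5 macrophage markers was between 149 and 213 FPKM in Trim11+/+ and between 148 and 159 in Trim11+/- tumors, and that of 4 neutrophil markers between 17.8 and 37.4 and between 17.7 and 20.2, with Ly6g listed at 0 in all 6. Among the macrophage markers Csf1r did not overlap, at 12.3 to 13.65 FPKM in Trim11+/+ and 6.82 to 12.0 in Trim11+/- tumors. Nor did the neutrophil markers Csf3r, at 1.63 to 2.23 and 1.21 to 1.51, and S100a9, at 1.70 to 5.435 and 0.436 to 1.43. Of all genes 13.4% did not overlap. The other macrophage markers and S100a8 overlapped between the genotypes. Markers of fibroblasts summed to between 139 and 296 FPKM and between 114 and 216. The summed level of 5 basal and myoepithelial markers did not overlap, at 131 to 320 FPKM in Trim11+/+ and 60.7 to 94.5 in Trim11+/- tumors, although Acta2 alone did, at 21.6 to 138 and 17.0 to 27.0. The 5 endothelial markers summed to between 12.4 and 19.2 FPKM and between 10.8 and 17.6, the 4 markers of luminal epithelium to between 1213 and 1555 and between 1285 and 1647, and the 5 markers of platelets, with Gp6 listed at 0, to between 3.10 and 7.84 and between 1.04 and 6.63. Skeletal muscle markers ranged from 0.494 to 177 FPKM over the tumors without separating the genotypes. The part of these cell types in the lower levels of Itga8, Itga5, Itgb2, Itgb5 and Itgam was not tested. Markers of T cells, B cells and dendritic cells summed to less than 5 FPKM in every tumor.

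The genes that act beside the integrins were counted in 2 lists. Of 48 genes of the adhesion plaque, the protein layer under clustered integrins, 46 were tested in tumors and 0 were called higher and 2 lower, beside 3.61% of all genes called in either direction. These were Dab2, an endocytic adaptor, at 9.16, 16.3 and 11.3 against 8.69, 6.30 and 5.17 FPKM, and Tgfb1i1, the paxillin relative Hic-5, at 2.87, 2.45 and 1.55 against 1.14, 1.10 and 1.45. Of 56 integrin ligands 46 were tested and 1 was called higher and 9 lower, beside the same 3.61% and, in the downward direction, 1.87%, with a median log2 fold change of -0.24 beside 0.00 over all genes. Lama3, a chain of laminin-332, was at 2.04, 1.38 and 1.83 FPKM in Trim11+/+ and 1.11, 0.688 and 0.537 in Trim11+/- tumors, Fbn1, fibrillin-1, changed by -0.63 on the log2 scale and Col4a1, a basement membrane collagen, by -0.68. Col4a1 was no longer called without Trim11+/+ 1 (-0.50) or without Trim11+/- 3 (-0.53). All of these had adjusted p of 0.598 or more in limma. Laminin-332 is a ligand of alpha3beta1 and alpha6beta4, whose subunits Itga3, Itga6, Itgb1 and Itgb4 were not called, at -0.14, 0.20, 0.07 and -0.09.

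In the cell lines 42 plaque genes and 35 ligands were tested. For the KDM5C guide limma called 0 plaque genes and 1 ligand, VTN, encoding vitronectin, lower at -0.55 on the log2 scale, beside 3.5% of all genes. VTN was no longer called without TRIM11-KD 1 (-0.40) or with TRIM11-KD 1 and DKD 1 left out together (-0.35). For the TRIM11 guide 2 plaque genes were higher and 2 lower, and 3 ligands were higher and 3 lower, beside 3.93% of all genes. The ligands with the smallest p were THBS1, encoding thrombospondin-1, at 565 FPKM in Control, 1087 and 1499 in TRIM11-KD, 721 and 506 in KDM5C-KD, and 1128 and 1177 in DKD, then ICAM1 (0.72), the ligand of leukocyte integrins, and MFGE8 (-0.60), an RGD protein that binds alphaV pairs. MFGE8 was no longer called under scaling by median ratios (-0.59), or without TRIM11-KD 2 (-0.58), KDM5C-KD 2 (-0.49) or DKD 1 (-0.52). For THBS1, all 4 libraries with a TRIM11 guide were above all 3 without it, beside 8.75% of all genes without overlap. Among the plaque genes were TLN2, the second talin (0.71), PTK2, encoding focal adhesion kinase (-0.62), and its relative PTK2B (0.65), with adjusted p between 0.449 and 0.454 in limma for these ligands and plaque genes.

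For DKD against KDM5C-KD, 1 plaque gene was higher and 2 were lower, and 4 ligands were higher and 4 lower, beside 6.74% of all genes. PTK2 was at 47.4 and 36.0 FPKM in DKD and at 68.4 and 80.4 in KDM5C-KD, with 62.9 in Control. TLN2 was higher (0.71) and TES, a LIM protein of focal adhesions, lower (-0.74), and the ligands THBS1 (0.93), ICAM1 (0.82) and MFGE8 (-0.69) moved the same way as for the TRIM11 guide, a comparison that shares the KDM5C-KD and DKD libraries. Here MFGE8 was no longer called without KDM5C-KD 2 (-0.53). Against Control, the rule of both lines held for 1, 0 and 1 plaque genes, all higher, in TRIM11-KD, KDM5C-KD and DKD. It held for 2 ligands higher and 2 lower in TRIM11-KD, 2 higher and 5 lower in KDM5C-KD, and 3 higher and 3 lower in DKD, beside 5.12%, 8.52% and 9.97% of all genes.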

How the data were processed

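Per the labels, RNA was selected for poly(A) tails and made into non-directional libraries. The authors trimmed reads, mapped paired reads of 150 bases with HISAT2 to hg19 or mm10, and computed expression with Cufflinks. They deposited 1 table of FPKM values for each species. GEO's processing notes also list Bowtie 0.12.2. Where a symbol stood in several rows, the row of highest mean was kept, which dropped 1456 human and 107 mouse rows, and 25 human symbols turned into dates were dropped. In the tumors 98.82% of 28794 genes gave whole reads within 0.01 reads. log2(FPKM + 1) was tested with limma 3.58.1 in R 4.3.3 (lmFit, eBayes with a trend), two-sided, with Benjamini-Hochberg adjustment over all genes tested. Scripts were tested on simulated data. Tables were handled with pandas 2.3.3 and numpy 2.4.6, intervals computed with scipy 1.17.1 and plots drawn with matplotlib 3.10.9, in Python 3.11.15. Named were all members called, members under an unadjusted p of 0.05 in the tumor and guide comparisons, the 2 highest of each role and all kindlins and talin, and at most 3 genes of each other list. Members and lists were chosen with earlier results of these data known. Alternatives were another pseudocount (0.1), other filters (none, or a mean of at least 1), scaling by median ratios, no trend, an adjusted p, a replicate block, each library left out, limma voom on recovered reads, KDM5C-KD and DKD fitted alone, and, against Control, FPKM + 1, a fold of 2 or the mean of both lines.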

Additional observations from a re-analysis of the deposited data

Results flagged for a closer look

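For ITGB4 and ITGA10 the effect of the KDM5C guide differed with and without a TRIM11 guide at an unadjusted p under 0.05 in limma. The interaction was 1.25 on the log2 scale for ITGB4 (unadjusted p 0.0285 in limma) and 1.15 for ITGA10 (unadjusted p 0.0404 in limma), and the adjusted p was 0.879 for both, so neither passed the correction. In both, the lone Control library sets 1 of the 4 corners of the comparison and its own spread is unknown. ITGA10 also reached the filter on mean FPKM only through Control. The interaction of ITGB4 was no longer under the threshold without either TRIM11-KD library, KDM5C-KD 2 or DKD 2 (between 0.91 and 1.34), and that of ITGA10 without TRIM11-KD 2, KDM5C-KD 2, DKD 1 or DKD 2 (between 0.81 and 1.24).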

How the results depend on the processing

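Of 379 values of single genes under other settings, 334 kept their side of the threshold or stayed within the spread of their lines, 39 were weaker, 1 was stronger, 5 moved by more than that spread and 0 changed sign. For the ratios to Control, part of this was fixed in advance. The fold of 2, the mean of both lines and no filter repeat the same ratio. Leaving out 1 line cannot move a ratio beyond the spread of its lines. In the limma fits, ITGA3, ITGA5, Itgb2 and Itgb5 missed the fold from the start and counted among the 334 wherever they stayed uncalled. That included fits in which their unadjusted p no longer passed, as for Itgb2 and Itgb5 without Trim11+/- 2 or Trim11+/- 3. For these members the label is therefore no measure of a stable result. Under an adjusted p the members called fell to 0 in tumors, for the KDM5C guide and for DKD against KDM5C-KD. Without a filter on FPKM 1 member was called in tumors, 2 for the TRIM11 guide, 4 for DKD against KDM5C-KD and 1 for the interaction. A mean FPKM of at least 1 gave 1 member for the KDM5C guide and 1 for the interaction, and a pseudocount of 0.1 gave 1 for the interaction. With TRIM11-KD 1 and DKD 1 left out together, chosen after seeing the data, the count was 0 for the KDM5C guide, 4 for the TRIM11 guide and 4 for DKD against KDM5C-KD. Against Control, the ratio of FPKM + 1 and the fold of 2 each gave 1 member in TRIM11-KD, 2 in KDM5C-KD and 1 in DKD, and the mean of both lines gave 5, 7 and 5. Limma voom on recovered reads called 3 of 27 members in tumors and 547 genes in all, where limma on FPKM called 625. The causes of these changes were not tested.

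Leaving out each library in turn gave between 0 and 2 members in tumors, 0 and 3 for the KDM5C guide, 0 and 2 for the TRIM11 guide, 1 and 5 for DKD against KDM5C-KD, and 0 and 4 for the interaction. The tumor count was 0 without Trim11+/+ 2, Trim11+/- 2 or Trim11+/- 3, and that of the KDM5C guide was 0 without TRIM11-KD 1. Against Control, where 1 line then decides, it gave between 3 and 6 in TRIM11-KD, 5 and 8 in KDM5C-KD, and 5 and 7 in DKD.

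The replicate number of the TRIM11-KD and DKD lines is that of their TRIM11 guide, and that of KDM5C-KD is its KDM5C guide, while nothing in the labels gives same-numbered samples a shared culture, mouse or day. Same-numbered tumors correlated at -0.33, 0.038 and -0.13 in their deviations from the group means, and same-numbered lines at 0.087, 0.371 and 0.273. With a replicate block 1 member was called in tumors, 1 for the KDM5C guide, 3 for the TRIM11 guide and 4 for DKD against KDM5C-KD. Under the block the TRIM11 guide had the same log2 fold changes as DKD against KDM5C-KD. The block could not be fitted for the interaction, since Control takes a level of its own, and the interaction could not be fitted without Control. The depth of the cell lines is unknown, and in tumors Itgad, with 6 to 12 reads, carries little information.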
